A study of Homo sapiens with 8 samples.

Results

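G-quadruplexes (G4s) are 4-stranded DNA structures of stacked guanine tetrads. G4 intervals lying just inside protein-coding genes were examined in 2 human cancer lines, K562 (chronic myelogenous leukemia) and HepG2 (hepatocellular carcinoma). A member was an interval of the high-confidence list of either line whose centre lay 100 to 1000 bp downstream, in the direction of transcription, of the nearest transcription start site (TSS) of any protein-coding transcript. The rule found 515 of 9205 K562 intervals and 406 of 8805 HepG2 intervals, or 921 of 18010 in all. Members were grouped by where the centre fell in the transcript that starts at that TSS (5′ UTR, coding sequence of the first exon, first intron, or other) and by the strand of the G4 motif against the gene.

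Both lines were untreated and asynchronous, and chromatin was precipitated with BG4, an antibody against the folded G4. The cells had been fixed with formaldehyde. RNA in the chromatin was digested with RNase A, so the signal is meant to come from DNA. The labels give 3 G4 ChIP-seq libraries and 1 input library for each line. A high-confidence interval is a stretch called as a peak in at least 5 of 8 K562 replicates or 6 of 9 HepG2 replicates, and a lower-confidence interval in at least 2. These replicates are not independent, since they include technical repeats of 3 experiments per line. The lists hold positions alone, so neither replicate spread nor depth per library enters any value here, and the lines were not checked against expression markers. Each disease is represented by 1 established line.

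As background, the DNA just downstream of a TSS is transcribed, so the strands of the double helix differ in role. RNA polymerase reads the template strand, and the non-template strand has the sequence of the RNA. Guanine runs on the non-template strand can fold while the nascent RNA is paired to the template strand in an R-loop, and the same runs can fold in the RNA itself. The start of the first intron of human genes is known to be rich in guanine on the non-template strand, and many CpG-island promoters extend into it. G4s in the 5′ UTR of a messenger RNA are known as barriers to translation.

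Examples of the motifs under the members are shown first, since strand and location organise the results. A motif was defined, on either strand, by 4 guanine runs (3 or more bases each) and by loops no longer than 7 bases, in which any base was allowed. Sequences are from hg19, read 5′ to 3′ on the strand that carries the guanines, with runs of 3 or more G in capitals. The first set comes from shared members with the most guanine runs for their location and strand. The PPFIA3 motif itself starts past the end of exon 1. The FAM20B motif shown is centred 51 bp downstream, before the window begins at 100 bp. The overlapping HepG2 interval ends within that motif.
FAM20B, 5′ UTR, non-template, chr1:178995068-178995091, plus strand: GGGaatggccGGGccGGGGGtGGG
DNAAF2, first exon CDS, template, chr14:50101146-50101170, plus strand: GGGGaGGGcgcccGGGGcccGGGGG
PPFIA3, at the first exon boundary, non-template, chr19:49631375-49631393, plus strand: GGGcGGGacaGGGGcGGGG
CCDC9, first intron, non-template, chr19:47760036-47760053, plus strand: GGGtGGGcaGGGtcGGGG
CCDC9, first intron, non-template, chr19:47760296-47760321, plus strand: GGGGGagccaGGGGGcGGGGccaGGG
PTBP1, first intron, template, chr19:797831-797859, minus strand: GGGcgcgcgaGGGccggacGGGaagcGGG
PTBP1, first intron, template, chr19:797866-797891, minus strand: GGGGagcggacGGGaggcGGGaaGGG
The second set comes from members found in 1 line and absent from both lists of the other line, where the number of motifs in the interval was highest. The ELAVL3 motif shown is centred 1077 bp downstream, past the window limit of 1000 bp, though the centre of its interval is inside.
ESPN, first intron, K562, non-template, chr1:6500581-6500603, plus strand: GGGGtGGGGcGGGGGGGcGGGGG
ESPN, first intron, K562, template, chr1:6500667-6500683, minus strand: GGGcGGGacGGGcGGGG
TECR, first intron, K562, template, chr19:14675283-14675308, minus strand: GGGGcccgacGGGGGcGGGGctGGGG
ELAVL3, first intron, K562, template, chr19:11590350-11590375, plus strand: GGGGcGGGGGtggagccGGGGtGGGG
RDH14, first intron, HepG2, non-template, chr2:18741375-18741396, minus strand: GGGaGGGGactgcGGGctGGGG
RDH14, first intron, HepG2, non-template, chr2:18741415-18741441, minus strand: GGGcctcGGGGGGccGGGctggtGGGG

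The first question was how common G4s are 100 to 1000 bp downstream of the TSS. Members made up 5.59% of the K562 list (95% Wilson interval 5.14 to 6.08) and 4.63% of the 8776 HepG2 intervals on nuclear chromosomes (4.21 to 5.09). The window of the same size upstream of the TSS held 2039 K562 and 2081 HepG2 intervals. A further 4510 and 3272 lay under 100 bp from the TSS on either side, so the shares above leave out those just downstream. Between 100 and 1000 bp, downstream intervals were thus outnumbered by upstream ones in both lines. The bases available on each side were not compared. The share downstream was higher in K562 (odds ratio 1.22, interval 1.07 to 1.396, two-sided Fisher's exact test, adjusted p = 0.0055 over the 34 Fisher's tests run on the lists). Some members lie nearer to a TSS of a transcript of any type other than protein-coding (below, a noncoding TSS). Without them the odds ratio was 1.19 and the call was lost (Fisher's exact p = 0.061). A higher K562 share was not limited to the downstream side. Under 100 bp from the TSS it was 49.0% against 37.3% in HepG2, while upstream it was 22.2% against 23.7%. Over 1000 bp from a coding TSS lay 23.3% of the K562 list and 34.4% of the HepG2 list. The lists also differ in the replicates required. Wilson intervals and tests here cover the counting of intervals only, since peaks of 1 list are not replicates.

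The shortfall against the upstream side lay close to the TSS. At 100 to 200 bp there were 110 downstream against 1392 upstream intervals in K562, and 98 against 1457 in HepG2. At 300 to 400 bp the counts were 106 against 127 in K562 and 63 against 114 in HepG2. At 500 to 600 bp they were 55 against 54 and 43 against 36. The upstream profile fell steeply with distance, whereas the downstream profile was flat over its first 300 bp in K562. The median distance of members was 328 bp in K562 (quartiles 228 and 521) and 360 bp in HepG2 (209 and 560), against 151 and 154 bp upstream.

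**Figure D1:**
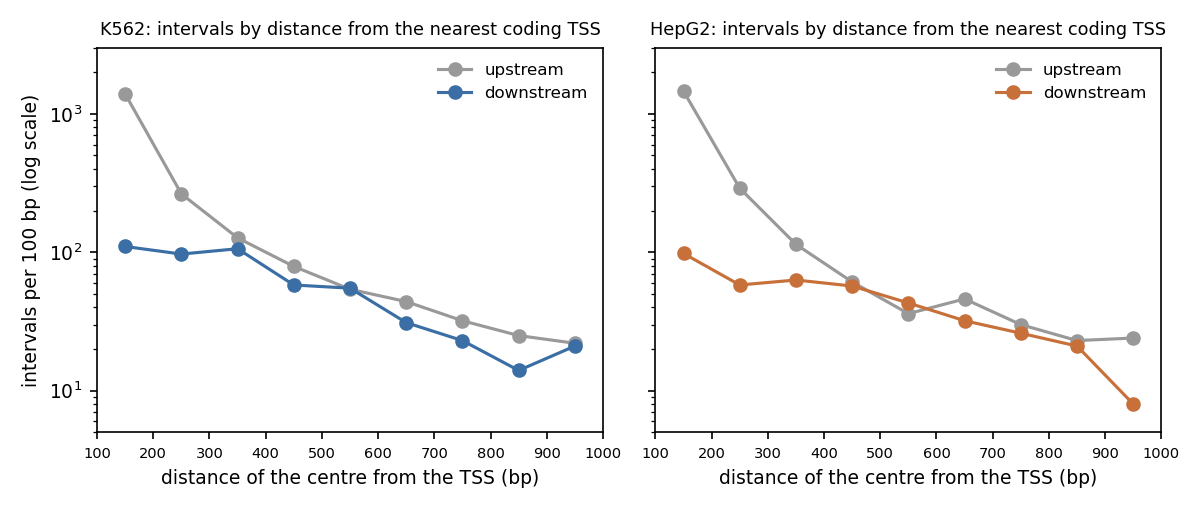
Number of high-confidence intervals per 100 bp (log scale) against the distance of the centre from the nearest coding TSS, for K562 (left) and HepG2 (right), upstream in grey and downstream in colour. The upstream counts start at 1392 and 1457 and meet the downstream counts at 500 to 600 bp, where K562 has 54 and 55.

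Members were narrower than upstream intervals, with a median width of 163 against 249 bp in K562 and 153.5 against 230 bp in HepG2. Their median GC content was 71.2% in K562 and 66.7% in HepG2, beside 71.1% and 67.8% upstream. GC content was therefore similar on both sides of the TSS, and width was not. Width bears on every motif and overlap count below, because a longer interval has more room for either.

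The next question was where in the gene the members sit. First introns held 365 of 515 K562 members (70.9%, 66.8 to 74.6) and 294 of 406 HepG2 members (72.4%, 67.9 to 76.5). 5′ UTRs held 84 (16.3%, 13.4 to 19.7) and 81 (19.95%, 16.4 to 24.1). The coding part of the first exon held 30 (5.83%, 4.11 to 8.19) and 8 (1.97%, 1.00 to 3.84). Most of the remaining 36 and 23 members lay in the second intron (19 and 11) or in the coding sequence of exon 2 (10 and 8).

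These shares were set beside the bases that could have held a member, that is, all bases 100 to 1000 bp downstream of their nearest coding TSS. First introns made up 72.03% of those bases, 5′ UTRs 9.13% and first exon coding sequence 8.43%. The first intron share of members was thus that of the bases, the 5′ UTR share was above it in both lines, and the first exon coding share was below it in both. Per megabase of annotated sequence there were 28.8 K562 and 27.8 HepG2 members in 5′ UTR, 15.9 and 12.8 in first intron, and 11.1 and 2.97 in first exon coding sequence.

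5′ UTR lies near the TSS, where members are also most frequent, so the same comparison was made with bases taken at the members' own distances. The 5′ UTR share of bases was then 13.3% in K562 and 13.2% in HepG2. That value lay just under the interval of the K562 share and further below the HepG2 share. First exon coding sequence made up 10.7% and 10.5% of the distance-matched bases, above the interval of the member share in either line. In counts, 54.9 K562 and 42.7 HepG2 members would have fallen in first exon coding sequence had members followed the bases, against the 30 and 8 found. Both shares moved with the settings: with 1 TSS per gene the 5′ UTR share was 13.2% and 8.01%, and in the lower-confidence lists the first exon coding share was 10.8% and 8.62%. Base shares were not computed for those settings, so whether either difference from the bases holds there was not tested.

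**Figure D2:**
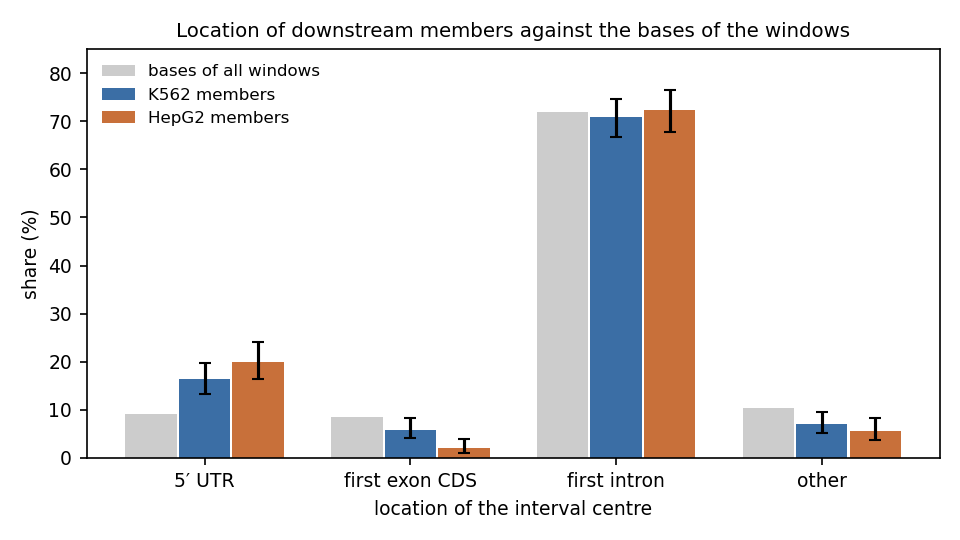
Share (%) of members by the location of the centre in the transcript, for K562 and HepG2 with 95% Wilson intervals as bars, beside the share of all bases 100 to 1000 bp downstream of a coding TSS in grey. First introns hold 70.9% and 72.4% of members and 72.03% of bases, and 5′ UTRs hold 16.3% and 19.95% of members and 9.13% of bases.

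Within the first intron, the distance of members past the exon was bounded by the 1000 bp window. The median distance of the centre past the end of exon 1 was 210 bp in K562 and 247.5 bp in HepG2, and 243 of 365 and 171 of 294 were within 300 bp (66.6% and 58.2%). The first intron of a transcript with a member had a median length of 4066 bp (K562) and 4426.5 bp (HepG2) against 3379 bp over all coding TSSs. The median first exon was 160 and 158.5 bp against 150 bp over all. The exon boundary itself lay inside 103 of 515 K562 and 84 of 406 HepG2 intervals, whose class by centre is therefore less firm. Because the window ends at 1000 bp, intron positions farther in could not be members, and a preference for the exon was not tested.

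A complete motif was found in 172 of 515 K562 members (33.4%, 29.5 to 37.6), beside 32.6% of all K562 intervals. In HepG2, 90 of 406 members held a motif (22.2%, 18.4 to 26.5), beside 20.6% of all HepG2 intervals. Both shares were near those of the whole list and of intervals under 100 bp from the TSS (31.9% and 21.3%). Upstream intervals held a motif more often, in 41.1% (K562) and 32.3% (HepG2) of cases. The odds ratio of downstream against upstream was 0.72 in K562 (0.59 to 0.88, adjusted p = 0.0022) and 0.60 in HepG2 (0.46 to 0.77, adjusted p = 0.00011, Fisher's exact test). That difference moved with width: over 50 bp width classes the Mantel-Haenszel odds ratio was 1.20 in K562 and 0.88 in HepG2, and neither passed the threshold. With a fixed 100 bp on either side of the centre it was 1.08 and 0.95 (Fisher's exact p = 0.45 and 0.68).

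Motif content was compared between first introns and 5′ UTRs. In first introns 130 of 365 K562 members and 66 of 294 HepG2 members held a motif (35.6% and 22.4%). In 5′ UTRs it was 25 of 84 and 17 of 81 (29.8% and 21.0%). The odds ratio of first intron against 5′ UTR was 1.31 in K562 (0.78 to 2.18, adjusted p = 0.44) and 1.09 in HepG2 (0.60 to 1.99, adjusted p = 0.88, Fisher's exact test), so either direction was within the interval. First exon coding sequence had a motif in 6 of 30 K562 and 3 of 8 HepG2 members, and the remaining members in 11 of 36 and 4 of 23, without a test.

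The strand of the motif set the downstream side apart. Among K562 members with motifs on 1 strand only, 105 had them on the non-template strand and 52 on the template strand (66.9% non-template, 59.2 to 73.8, two-sided exact binomial p = 2.8e-05, unadjusted). In HepG2 the counts were 60 and 23 (72.3%, 61.8 to 80.8, exact p = 6.0e-05). Of these HepG2 members, 44 of 60 and 16 of 23 overlapped a high-confidence K562 interval. Strand and base content belong to the genome sequence, so the values of the lines, here and below, are not independent. Upstream of the TSS neither strand prevailed, with 366 against 357 intervals in K562 (50.6%) and 304 against 317 in HepG2 (49.0%). The odds ratio of downstream against upstream was 1.97 in K562 (1.37 to 2.83, adjusted p = 0.00050) and 2.72 in HepG2 (1.64 to 4.51, adjusted p = 0.00016, Fisher's exact test). Intervals under 100 bp from the TSS lay between, at 55.3% and 52.9%, and differed from the members in both lines (Fisher's exact test, adjusted p = 0.0097 and 0.0018).

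The imbalance was found in first introns. There, 83 K562 members had non-template and 35 template motifs (70.3%, 61.6 to 77.8, exact p = 1.2e-05), and HepG2 had 50 and 11 (82.0%, 70.5 to 89.6, exact p = 4.6e-07). In 5′ UTRs the counts were 13 and 10 in K562 and 7 and 8 in HepG2, with intervals from 36.8 to 74.4% and from 24.8 to 69.9%. First intron and 5′ UTR differed in HepG2 (odds ratio 5.19, 1.55 to 17.4, Fisher's exact test, adjusted p = 0.012). In K562 the odds ratio was 1.82 (0.73 to 4.55, Fisher's exact test, adjusted p = 0.28), and the ratio between the lines was 0.35 with an interval from 0.077 to 1.60. First exon coding sequence gave 3 against 2 intervals in K562 and 1 against 2 in HepG2, too few to show a direction.

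The annotated sequence has an imbalance of the same direction, counted motif by motif rather than interval by interval. Over all windows 58.7% of motifs were on the non-template strand, with 62.8% in first introns, 40.4% in 5′ UTRs and 39.1% in first exon coding sequence. In the windows of TSSs with an interval under 100 bp away or upstream, the first intron share was 62.9% (K562) and 64.3% (HepG2). In the windows of TSSs with a member it was 66.9% (K562) and 69.6% (HepG2), and these counts hold the members' own motifs. The K562 first intron share of members has an interval that holds 62.8%. The HepG2 interval lies above 62.8% in the main setting, with a lower bound of 70.5%. The 69.6% of its member windows is close to that bound but is not an independent level, since those windows contain the members. The HepG2 share was lower with Ensembl canonical or MANE TSSs only (71.2%) and in the lower-confidence list (68.6%). Because intervals and single motifs are unlike units, an excess of members over the sequence was not tested. In 5′ UTRs the sequence thus favours the template strand, and the few members with motifs there had intervals that hold the 40.4% of the sequence.

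**Figure D3:**
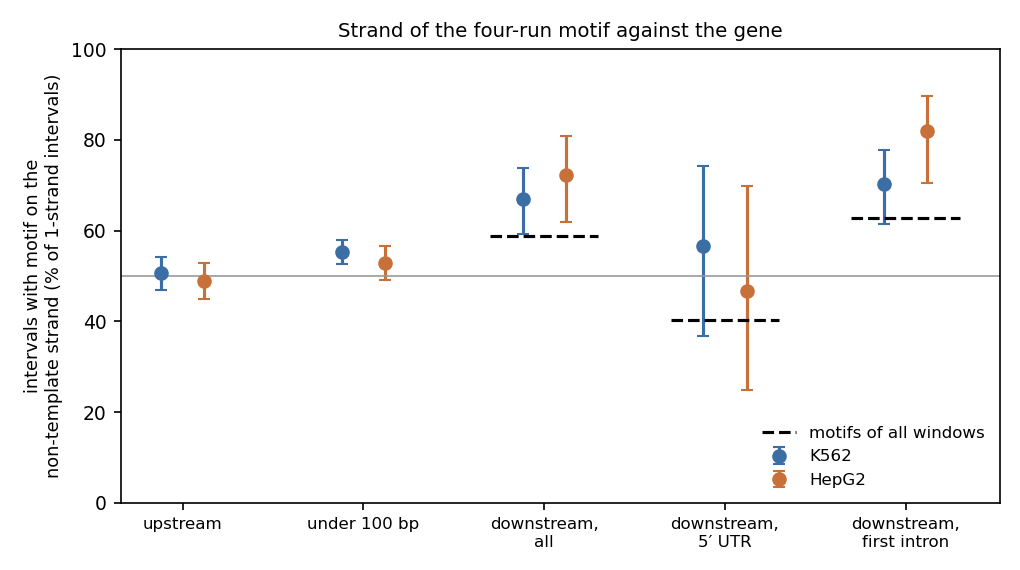
Share (%) of intervals with the motif on the non-template strand, among intervals with motifs on 1 strand, with 95% Wilson intervals, for intervals upstream, under 100 bp from the TSS and downstream, and for downstream members in 5′ UTR and first intron. Dashed lines give the share of single motifs over all windows (58.7%, 40.4% and 62.8%), and the grey line marks 50%.

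A measure that needs no motif gave the same direction. On the non-template strand, 320 K562 members had more G than C and 182 more C than G (63.7%), and HepG2 had 252 and 138 (64.6%). Upstream the shares were 49.8% and 48.0%, and under 100 bp from the TSS 57.9% and 57.1%. The odds ratio against upstream was 1.77 in K562 (1.45 to 2.17, adjusted p = 6.6e-08) and 1.98 in HepG2 (1.58 to 2.47, adjusted p = 7.3e-09, Fisher's exact test). Against intervals under 100 bp from the TSS it was 1.28 (1.05 to 1.55, adjusted p = 0.018) and 1.37 (1.10 to 1.71, adjusted p = 0.0076, Fisher's exact test). Beyond 400 bp, where the numbers of intervals on the 2 sides are closer, 60.9% of K562 and 64.2% of HepG2 members had more G, against 44.5% and 43.7% upstream. The motif strand at those distances was non-template in 44 of 67 K562 and 29 of 39 HepG2 members (65.7% and 74.4%), against 48.4% and 37.8% upstream (Fisher's exact p = 0.053 and 0.00099, unadjusted).

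In first introns the excess of G was highest shortly after the exon. At 100 to 200 bp past the end of exon 1, 75 K562 members had more G and 20 more C (78.9%), and HepG2 had 40 and 8 (83.3%). In the first 100 bp the shares were 68.0% and 68.8%, and from 300 bp on they were 58.1% and 68.1%. 5′ UTR members had more G in 50 of 82 K562 and 39 of 78 HepG2 intervals (61.0% in K562, and an even split in HepG2). First intron and 5′ UTR differed in HepG2 (odds ratio 2.44, 1.46 to 4.07, Fisher's exact test, adjusted p = 0.0015) and not past the threshold in K562 (1.30, 0.79 to 2.14, adjusted p = 0.37).

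**Figure D4:**
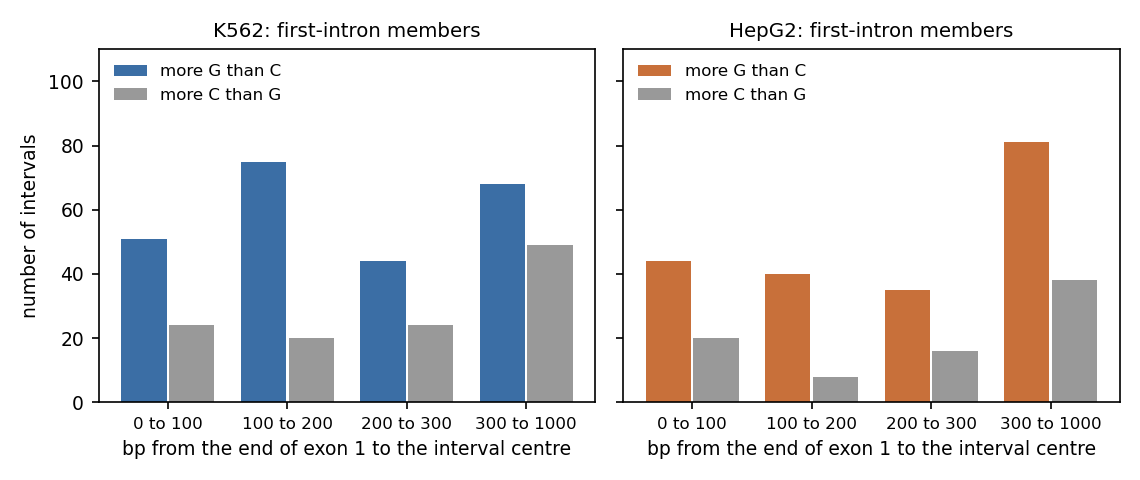
Number of first-intron members with more G than C (colour) or more C than G (grey) on the non-template strand, by the distance in bp from the end of exon 1 to the interval centre, for K562 (left) and HepG2 (right). The last group spans 300 to 1000 bp, and at 100 to 200 bp the counts are 75 against 20 and 40 against 8.

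Short sequence elements were searched within 201 bp around each centre, on both strands. The GC box letters GGGCGG, which can overlap a G4 motif and are bound by SP family factors, were found around 73.4% of K562 and 62.3% of HepG2 members, beside 74.5% and 57.3% of all intervals of the lists. Around first-intron members they were on the non-template strand only in 132 K562 and 110 HepG2 cases, and on the template strand only in 72 and 42. Around 5′ UTR members the counts were 16 against 18 in K562 and 13 against 19 in HepG2, and over all intervals 2664 against 2185 and 2060 against 1759. These counts were not tested. The NRF1 core GCGCATGC was found around 2.91% and 2.96% of members, beside 4.82% and 4.54% of all intervals. The YY1 core AAGATGGC, which does not hold a guanine run of 3, was found around 8 K562 and 4 HepG2 members (1.55% and 0.99%), beside 2.37% and 1.56% of all intervals.

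The members were less often shared between the lines than upstream intervals. Of the K562 members, 190 of 515 overlapped a high-confidence HepG2 interval by at least 1 bp (36.9%, 32.8 to 41.1), beside 51.1% of all K562 intervals. Of the HepG2 members, 192 of 406 overlapped a K562 interval (47.3%, 42.5 to 52.1), beside 53.9% of all HepG2 intervals. Upstream the shares were 66.9% and 77.5%. The odds ratio of downstream against upstream was 0.29 in K562 (0.24 to 0.35, adjusted p = 1.9e-33) and 0.26 in HepG2 (0.21 to 0.33, adjusted p = 3.9e-31, Fisher's exact test).

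Upstream intervals lie closer to the TSS and are wider, and both moved with the shares. Within 100 bp distance and 100 bp width classes the odds ratio was 0.48 in K562 (0.37 to 0.61) and 0.49 in HepG2 (0.37 to 0.63). Beyond 400 bp, 35.6% of K562 members and 44.9% of upstream intervals were shared, and 41.7% and 53.6% in HepG2 (Fisher's exact p = 0.055 and 0.017, unadjusted). The difference was thus smaller away from the TSS. Shared members were wider than members absent from both lists of the other line, with a median of 227 against 125 bp in K562 and 193.5 against 119.5 bp in HepG2.

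The overlapping interval was in most cases a member of the other line too, in 164 of 190 K562 and 169 of 192 HepG2 cases, and the centres were a median of 29 bp apart. A further 150 K562 and 76 HepG2 members had a counterpart at lower confidence alone in the other line. No interval of either list of the other line overlapped 175 K562 and 138 HepG2 members (34.0% of members in either line), beside 24.4% of all K562 and 32.9% of all HepG2 intervals. Upstream, 14.2% and 11.9% had none, and over 1000 bp from a coding TSS 52.3% and 70.8% had none. In HepG2 the share of members was near that of the whole list. A shared member was mostly downstream in both lines, which the overlap rule largely sets, since overlapping intervals have nearby centres.

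By location, first intron and 5′ UTR were compared. In K562, 144 of 365 first-intron and 35 of 84 5′ UTR members were shared (39.5% and 41.7%, odds ratio 0.91, 0.56 to 1.48, adjusted p = 0.76, Fisher's exact test). In HepG2 it was 146 of 294 and 33 of 81 (49.7% and 40.7%, odds ratio 1.43, 0.87 to 2.36, adjusted p = 0.22, Fisher's exact test). First exon coding members were shared in 5 of 30 K562 and 6 of 8 HepG2 cases. The remaining members were shared in 6 of 36 and 7 of 23 cases. These smaller groups were not tested, and in K562 their shares (16.7% each) were below those of first intron and 5′ UTR.

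Sharing was also compared by motif. HepG2 members with a motif were shared in 73.3% of cases and those without in 39.9% (odds ratio 4.15, 2.47 to 6.97, Fisher's exact test, adjusted p = 6.6e-08), and within width classes the odds ratio was 2.58 (1.48 to 4.50). In K562 the shares were 47.1% and 31.8% (odds ratio 1.91, 1.31 to 2.78, adjusted p = 0.0018, Fisher's exact test). Within 50 bp width classes the K562 odds ratio was 0.94 (0.61 to 1.45), so the K562 difference was not seen among intervals of like width. K562 members with a template motif were shared less often than those with a non-template motif, 17 of 52 against 56 of 105 (32.7% and 53.3%, Fisher's exact test, adjusted p = 0.024), also within width classes (odds ratio 0.39, 0.18 to 0.82). In HepG2 the shares were 69.6% and 73.3% with an odds ratio of 0.83 and an interval from 0.29 to 2.39.

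**Figure D5:**
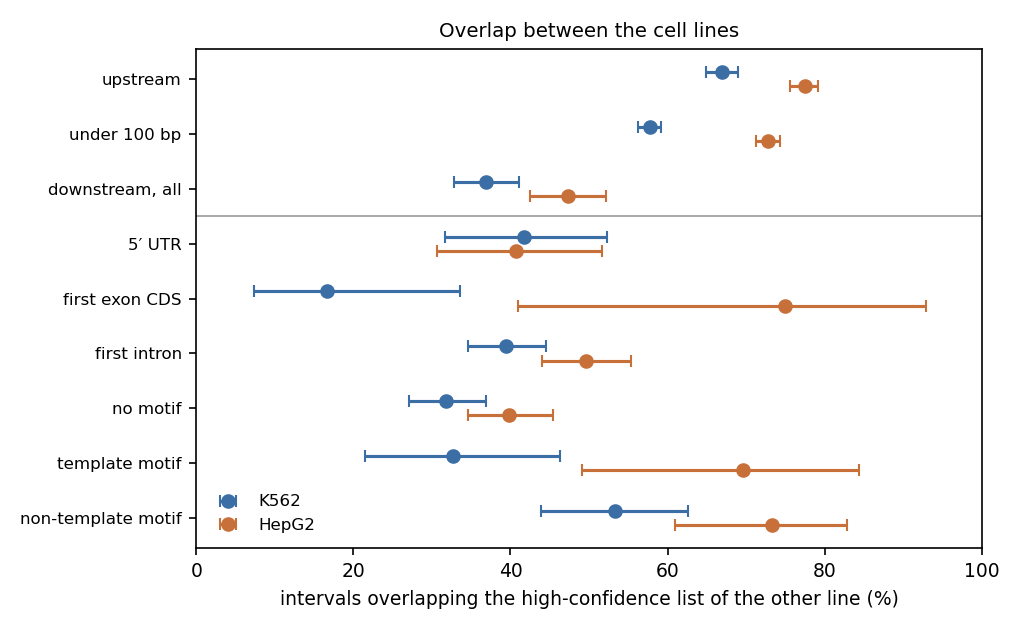
Share (%) of intervals that overlap a high-confidence interval of the other line, with 95% Wilson intervals, for intervals upstream, under 100 bp from the TSS and downstream (above the line) and for downstream members by location and motif (below it). Downstream members sit at 36.9% (K562) and 47.3% (HepG2), below upstream intervals at 66.9% and 77.5%.

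Some members accompanied a second G4 interval at the same TSS. An interval under 100 bp from the TSS or within 1000 bp upstream of it was present for 248 of 515 K562 members (48.2%) and 148 of 406 HepG2 members (36.5%). For the other 267 and 258, no high-confidence interval was centred between 1000 bp upstream and 100 bp downstream of the TSS. The member and the other interval were joined in 1 lower-confidence interval in 77 K562 and 52 HepG2 cases (31.0% and 35.1% of the accompanied members), and the rest were separated by a median gap of 406 and 504 bp. Unaccompanied K562 members held a motif more often than accompanied ones, 39.3% against 27.02% (odds ratio of accompanied against unaccompanied 0.57, 0.39 to 0.83, adjusted p = 0.015 over 4 Fisher's exact tests). That call was lost within width classes (odds ratio 0.72, 0.47 to 1.08). In HepG2 a motif was held by 21.3% of unaccompanied and 23.6% of accompanied members (odds ratio 1.14, 0.71 to 1.85), with an odds ratio of 1.85 (1.05 to 3.27) within width classes.

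The choice of TSS bears on what counts as downstream. The nearest coding TSS was the Ensembl canonical or MANE one for 164 K562 and 108 HepG2 members (31.8% and 26.6%). For 243 and 187 members a TSS of a transcript not typed as protein-coding was nearer (47.2% and 46.1%). It belonged to the same gene in 173 and 123 cases, so noncoding here describes the transcript type and not the gene. The centre was upstream of that noncoding TSS in 106 and 80 cases. Many members are therefore downstream of 1 annotated start and upstream of another, and which start the cells use was not measured in these lists.

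The members belonged to 481 coding genes in K562 and 375 in HepG2, of 19821 annotated (2.43% and 1.89%). Both lines had a member in 171 genes, which is 35.6% of the K562 and 45.6% of the HepG2 genes. The same overlap was not counted for genes with an interval elsewhere, so these shares cannot be called low or high. Nearly all genes had 1 member, with 2 in 25 genes of each line. Separate intervals in 1 gene were in several cases fragments of 1 broader peak.

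Individual members give the range of sizes and positions. CCDC9, which encodes a coiled-coil protein, held the widest member in both lines, chr19:47759714-47760718 in K562 (1005 bp) and chr19:47759713-47760754 in HepG2 (1042 bp). Its centre lay 434 bp downstream in K562 and 452 bp in HepG2, and its 68 guanine runs on the non-template strand in K562 stood against 12 on the template strand. This was the shared first-intron member with the most guanine runs on the non-template strand, and the 2 CCDC9 sequences above come from it.

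PTBP1, a splicing regulator that binds pyrimidine tracts, carried the template counterpart. Its K562 interval, chr19:797713-798020, lay in the first intron 377 bp downstream and had 25 template and 2 non-template guanine runs. The HepG2 interval there was 145 bp wide against 308 bp in K562. The gene shows that guanine-rich template strands are also found among shared first-intron members.

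In 5′ UTRs, the shared member with the most guanine runs on the non-template strand was in FAM20B, a xylose kinase of proteoglycan synthesis. Its K562 interval, chr1:178994859-178995501, was 643 bp wide and spanned the TSS and the end of exon 1, with 44 non-template and 13 template runs. The overlapping HepG2 interval, chr1:178994869-178995071, was 203 bp wide and centred upstream of that TSS. FAM20B thus had no HepG2 member, and the sharing rests on overlap alone. The interval covers the TSS as well as the downstream window, so that the 5′ UTR class describes its centre only.

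In first exon coding sequence, DNAAF2, an assembly factor of ciliary dynein arms, held a member at chr14:50101035-50101199, 831 bp downstream within a long first exon. It had 11 template and 3 non-template runs, and HepG2 had an interval of 196 bp at the same place. The PPFIA3 member, chr19:49631195-49631533, had its centre 7 bp before the end of exon 1 of this gene for a synaptic scaffold (liprin alpha). Its motif lies in the first intron.

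Among members absent from both lists of the other line, 3 K562 intervals held 4 motifs each. They lay in first introns of ESPN (an actin-bundling protein of hair cells), ELAVL3 (a neuronal RNA-binding protein) and TECR (an enzyme of very-long-chain fatty acid synthesis). The ESPN interval carried motifs on both strands, and those of ELAVL3 (963 bp downstream) and TECR (chr19:14675174-14675492, 292 bp downstream) on the template strand, where TECR had 34 guanine runs against 1 on the non-template strand. In HepG2 the most was 2 motifs, in RDH14, a retinol dehydrogenase, at chr2:18741312-18741452 and 537 bp downstream.

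The genes with the most members include cases where the lists break up a peak. GSE1 had 4 K562 members at 2 TSSs, of 26, 32, 218 and 148 bp. Its members of 26 and 32 bp lay inside 1 lower-confidence interval of 364 bp. Those of 218 and 148 bp lay in separate lower-confidence intervals, of 765 and 222 bp. TNFRSF12A (the TWEAK receptor), FSTL3 (a binding protein of activins) and TRAPPC12 (a vesicle trafficking subunit) had 3 HepG2 members each. The 3 members of each of these HepG2 genes lay inside 1 lower-confidence interval, of 543, 729 and 461 bp, and the TRAPPC12 members were 2, 8 and 36 bp wide. Such short pieces are stretches where enough replicates overlapped, and need not be separate structures.

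At the borders of the window, 2 K562 members had their centre at the inner limit of 100 bp, 1 of them in C1orf159, and the nearest interval outside it lay 99 bp downstream of ZNFX1. At the outer limit, C10orf95 was inside at 996 bp and TSKS outside at 1004 bp. In HepG2 the corresponding genes were COQ6 (1 of 3 members at 101 bp) and PCGF2 (1 of 2 intervals at 99 bp), and IRF2 (988 bp) and DAPK3 (1001 bp). Within 20 bp of the inner limit there were 25 K562 and 23 HepG2 intervals inside and 40 and 45 outside, so that the inner limit cuts through a dense region.

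A list of 11 genes whose 5′ UTR is known for an RNA G4 was followed as a group (NRAS, ZIC1, MMP16, ESR1, TERF2, BCL2, ADAM10, VEGFA, FGF2, TGFB1 and CCND3). CCND3, which encodes cyclin D3, was the sole member, in K562, at chr6:41907264-41907403, 989 bp downstream of a TSS in the first intron and with a template motif. An interval under 100 bp from a TSS or upstream was found for 5 of the 11 genes in K562 and 4 in HepG2, beside 29.5% and 24.5% of all coding genes. For VEGFA, the angiogenic growth factor, HepG2 had lower-confidence intervals 292 and 583 bp downstream. Of 9 genes with a GC-rich repeat near the 5′ end (FMR1, AFF2, C9orf72, DIP2B, NOTCH2NLC, LRP12, GIPC1, ATXN2 and HTT), 0 had a member in either line, and 6 in K562 and 4 in HepG2 had an interval under 100 bp from a TSS or upstream, to be read against the same 29.5% and 24.5%. No test was run on these short lists. For comparison, 2.43% of all coding genes had a member in K562 and 1.89% in HepG2, so that counts of 1 and 0 in lists of this size are near what that share gives.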

How the data were processed

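G4s of K562 and HepG2 chromatin were mapped with the antibody BG4 by the authors. Per the study's methods, reads were trimmed (cutadapt), aligned to hg19 (BWA), stripped of duplicates, and peaks were called per replicate (MACS2) and intersected with bedtools multiinter. The values deposited by the authors are interval positions in bp, with no count, height or q-value, in 4 lists (9205 and 19249 K562 and 8805 and 28387 HepG2 intervals). Depth is therefore unknown, and precision was given as 95% Wilson intervals over peaks.

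Distances, locations and motifs were computed on GRCh37 with GENCODE version 44 lifted to that build, using 78569 coding TSSs of 19821 genes, whereas the authors used an earlier release. The 29 mitochondrial HepG2 intervals were left out. The location was that in the transcript starting at the nearest TSS (MANE or canonical first). Regions named were, per location and motif strand, the shared member with the most guanine runs, the members of 1 line with the most motifs, the widest, the gene with the most members, the borders, and 2 gene lists. One region named by this rule is not reported here. Members and lists were chosen with earlier results of these data known.

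Shares were compared with two-sided Fisher's exact tests, Benjamini-Hochberg adjusted over 34 tests, and strands with exact binomial tests (Python 3.11.15, scipy 1.17.1, statsmodels 0.14.6, pysam 0.24.0). Functions were tested on simulated data. Alternatives were other TSS sets, windows, lists, motif definitions, overlap rules and width or distance classes.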

Additional observations from a re-analysis of the deposited data

Results flagged for a closer look

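Of 10 contrasts set side by side in the lines, 2 had a ratio of K562 to HepG2 odds ratios whose 95% interval left out 1. For the sharing of members with against without a motif the ratio was 0.46 (0.24 to 0.87), from odds ratios of 1.91 in K562 and 4.15 in HepG2. For the motif in members with against without an interval closer to or upstream of the TSS it was 0.50 (0.27 to 0.92), from 0.57 and 1.14. Neither passed after adjustment over the 10 contrasts at the 0.05 threshold. Interval width moved with both, and its part in the difference between the lines was not tested.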

How the results depend on the processing

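Of 239 values computed under alternatives, 201 kept their direction and side of the threshold, or stayed within the stated range. Among them, the non-template share of first-intron members was 63.8 to 72.5% in K562 and 68.6 to 81.7% in HepG2, with the lowest K562 value when members nearer to a noncoding TSS were left out (exact p = 0.029). Over all its alternatives, unchanged or not, sharing downstream against upstream had odds ratios of 0.22 to 0.68 in K562 and 0.26 to 0.62 in HepG2. The highest came from the window of 400 to 1000 bp, where the K562 call was lost (0.68, Fisher's exact p = 0.055) and so was that of the K562 motif strand (2.04, exact p = 0.053). This window, classes of distance, and classes of width among members were added after the data were seen.

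The number of members was 272 (K562) and 219 (HepG2) without those nearer to a noncoding TSS, and 1679 and 2123 in the lower-confidence lists. The K562 share of the list against HepG2 weakened to an odds ratio of 1.19 without members nearer to a noncoding TSS. The motif odds ratio against upstream was 0.90 in K562 for a window of 200 to 1000 bp (Fisher's exact p = 0.43), 1.08 and 0.95 (K562 and HepG2) around the centre, 1.20 and 0.88 in width classes, 1.20 and 0.96 in distance and width classes, and 1.45 and 0.95 from 400 bp on. The ratio of these odds ratios between the lines was 1.20 and became 1.64 with the window of 200 to 1000 bp, with an interval that leaves out 1. Among members within width classes, the K562 sharing odds ratio by motif was 0.94, and the motif odds ratio by an accompanying interval was 0.72 in K562 and 1.85 in HepG2, the latter now past the threshold. The non-template share of 5′ UTR members with motifs on 1 strand (56.5% in K562) fell below 50% with 1 TSS per gene (37.5%), the lower-confidence list (46.2%), the window of 200 to 1000 bp (33.3%) and the centre (39.1%), on few intervals each. Causes were not tested beyond these constructions.

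The 5′ UTR share of members in K562 and HepG2 was 13.2 and 8.01% with 1 TSS per gene, 8.15 and 8.12% from 200 bp on, 21.7 and 28.3% up to 500 bp, and 13.3% in the lower-confidence HepG2 list. The first exon coding share was 10.8 and 8.62% in the lower-confidence lists and 6.46% in HepG2 with 1 TSS per gene. The first intron share was 78.3 and 82.8% from 200 bp on, 66.1% in the lower-confidence K562 list and 79.3% in HepG2 with 1 TSS per gene. No paired analysis was possible because the lists carry no replicate numbers, and for the same reason no replicate could be left out.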
